A study of Mus musculus with 13 samples.

Results

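The MHC class I antigen presentation genes H2-K1, H2-D1, H2-T23, H2-M3, B2m, Tap1, Tap2, Tapbp, Nlrc5 and Erap1 were followed in C2C12 myotubes treated with palmitoylethanolamide (PEA), an endogenous lipid mediator. The 10 members were taken as a list of symbols and matched to Ensembl genes of the GRCm39 annotation, and all 10 were found among the 16382 genes of the tables and passed the filter on low counts that left 13142 genes for testing. C2C12 is an immortal mouse myoblast line derived from C3H muscle that fuses into myotubes in low serum, and the cells are given as wild type, with no transgene or deletion in either group. On day 8 of differentiation the medium was changed to one holding vehicle (DMSO; CON, n = 6) or 10 µM PEA in the same vehicle (PEA, n = 6), and polyadenylated RNA was sequenced after 24 h. Each library came from 1 well of a single cell line. The 6 wells of a group are technical duplicates from an experiment done 3 times, and no label ties a well to its repeat. The n of 6 therefore stands for 3 independent repeats, and p-values, which treat each well as independent, may be too small. The 2 sequencing runs labelled PEA replicate 2 share 1 set of counts and were treated as 1 library.

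Class I molecules carry short peptides from inside the cell to its surface, where CD8 T cells and natural killer cells read them. A polymorphic heavy chain pairs with the invariant light chain beta-2-microglobulin, waits in the endoplasmic reticulum beside tapasin, and receives a peptide that the proteasome cut, the TAP transporter pumped in and an aminopeptidase trimmed. Resting muscle fibres are known for low surface class I, and interferons, through STAT and IRF factors and the transactivator NLRC5, are the best known inducers of the whole set in many cell types.

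The libraries held between 12354845 and 50397444 estimated counts (median 18420606), with CON replicate 1 the deepest. Over all genes, 829 (6.31%) were called higher and 623 (4.74%) lower in PEA by edgeR's quasi-likelihood test at an adjusted p below 0.05, and the median log2 fold change was 0.01. Myotube genes were abundant in every library (Acta1, skeletal actin, at 41248 normalized counts or more; Des, desmin, at 33168 or more). Among leukocyte markers, Ptprc, the pan-leukocyte antigen CD45, was at 0 counts in 10 of 12 libraries, while Cd68 ran from 51.1 to 133.7 normalized counts and Lyz2 from 4.72 to 20.4. The 6 leukocyte markers of the tables summed to 75.5 to 156.6 normalized counts in CON and 102.7 to 136.2 in PEA, and neither of the 2 tested, Cd68 and Lyz2, was called (edgeR adjusted p = 0.875 and 0.789).

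Sequence just before the RefSeq starts of the members is shown because the heavy chains, the light chain and the transporter are moved together in many cells by short elements there. The stretches come from the RefSeq promoter windows (GRCm38.p6), which held an entry for 8 of the 10 members, Tap2 and Nlrc5 being without one. Each was placed on GRCm39 by its only exact match on the chromosome. Capitals mark letters found by a search of both strands of the 250 bases before the RefSeq start for an interferon-stimulated response element (ISRE, GAAA, 2 bases of any kind and GAAA again), its shorter form (GAANNGAAA), the kappaB element and the core of the X2 box (TGACG). The strand is that of the gene.
H2-K1: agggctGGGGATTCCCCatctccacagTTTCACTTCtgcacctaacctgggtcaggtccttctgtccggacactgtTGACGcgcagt
H2-D1: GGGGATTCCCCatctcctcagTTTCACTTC
H2-T23: tactgcTTTCTCTTTCataaag
H2-M3: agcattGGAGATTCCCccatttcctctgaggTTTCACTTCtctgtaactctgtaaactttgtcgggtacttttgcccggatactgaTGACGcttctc
B2m: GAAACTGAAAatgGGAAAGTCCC
Tap1: gacaggTGACGacagag

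The H2-K1 stretch lies at chr17:34219352-34219438 on the minus strand, H2-D1 at chr17:35481899-35481928 (plus), H2-T23 at chr17:36343702-36343723 (minus), H2-M3 at chr17:37580993-37581089 (plus), B2m at chr2:121978029-121978051 (plus) and Tap1 at chr17:34406438-34406454 (plus). Those of H2-K1 and H2-M3 lie outside the GENCODE exons of their genes. For H2-D1, H2-T23, B2m and Tap1 an exon of a GENCODE transcript overlaps the longer stretch that held the matches, and only a short run is printed. H2-K1, H2-D1 and H2-M3 share the same layout, a kappaB match followed by TTTCACTTC, which is GAANNGAAA read on the other strand, and then TGACG. Over the 87 bases of the H2-K1 stretch, H2-D1 was identical at 81.

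The full ISRE letters were found before the RefSeq start of B2m and H2-T23, inside the longer GENCODE gene bodies of both (2 of 8 members, against 3.04% of 27018 RefSeq windows). GAANNGAAA alone was found in H2-K1, H2-D1 and H2-M3 (3 of 8, against 6.34%), the kappaB letters in H2-K1, H2-D1, H2-M3 and B2m (4 of 8, against 7.01%), and TGACG in those 4 and Tap1 (5 of 8, against 17.9%). A gamma-activated site (GAS, TTCNNNGAA, in 7.18% of windows) was found in H2-M3 (1 of 8). The letters of the search were settled after the windows had been read, so the counts are a description.

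All 10 members had a higher mean in PEA than in CON, with log2 fold changes from 0.20 (Erap1) to 0.64 (Tap1). H2-K1, B2m, Tap1 and Tapbp were called higher (4 of 10, against 6.31% of all genes tested), none was called lower, and 8 of 10 had an unadjusted p below 0.05, as did 3601 of the 13142 genes tested. The members' median log2 fold change was 0.37, beside 0.01 over all genes tested. In no member did all PEA libraries lie above all CON libraries, which was so for 2.53% of all genes tested. The plot of the members by library shows where the groups met: CON replicate 2 was the highest CON library for 9 of 10 members and lay above the lowest PEA library in 10 of 10, while CON replicate 3 was the lowest CON library for 8 of 10.

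**Figure D1:**
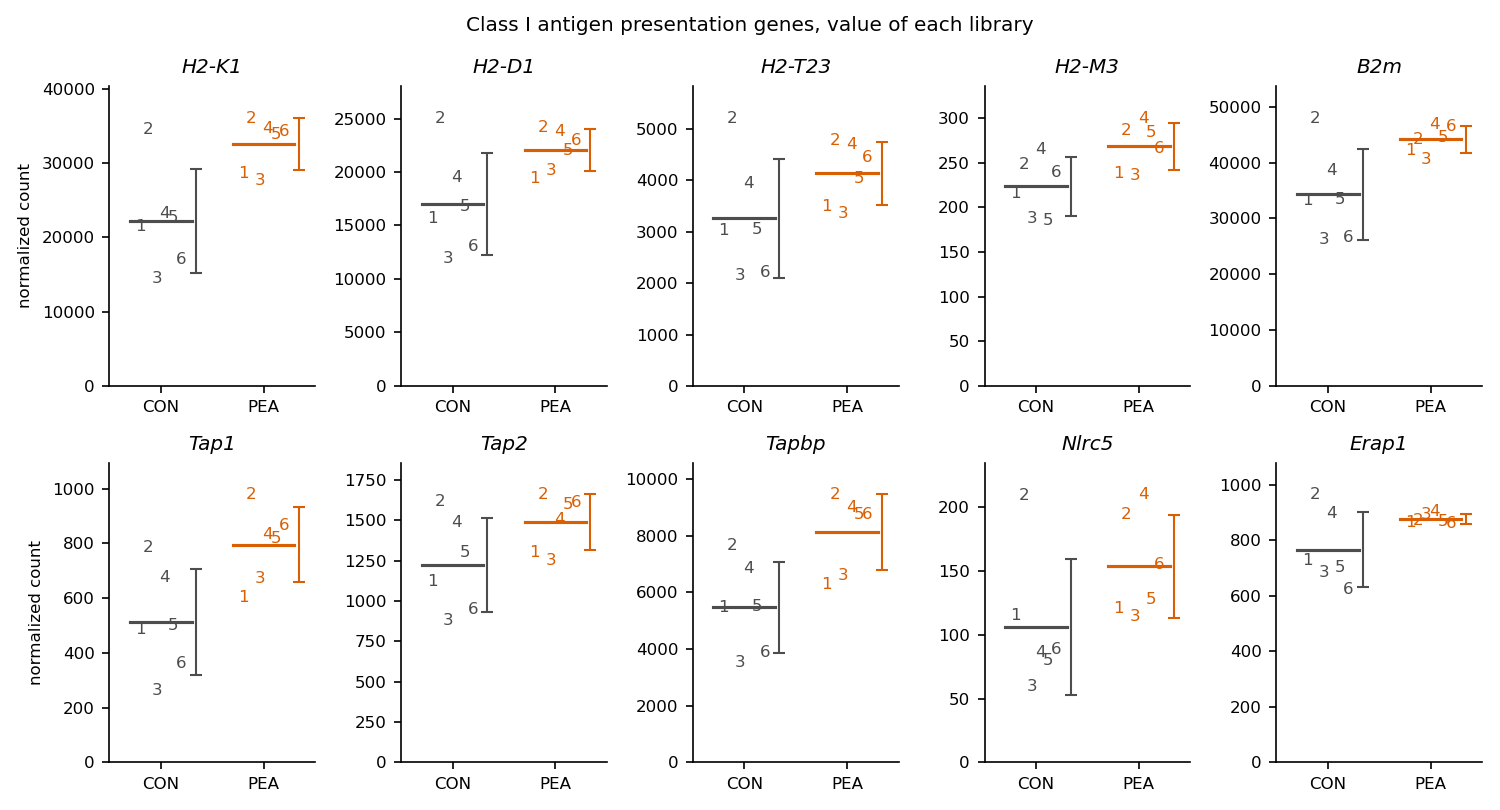
Normalized count (linear axis from 0) of each of the 10 members in CON and PEA; digits are replicate numbers, bars the group means, and error bars 1 SD (n = 6). CON replicate 2 sits with the PEA libraries in nearly every panel, and CON replicates 3 and 6 sit lowest in most.

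H2-K1 (chr17:34214987-34219321) and H2-D1 (chr17:35481691-35486475) encode the classical heavy chains, which present peptides to CD8 T cells. H2-K1 ran from 14416 to 34598 normalized counts in CON (median 22105) and from 27747 to 36085 in PEA (median 34108). CON replicate 2 alone reached the PEA range, the other 5 CON libraries lying below every PEA library. The log2 fold change of H2-K1 was 0.55 (SE 0.15), and it was called higher (edgeR adjusted p = 0.0282). H2-D1 ran from 11917 to 25039 normalized counts in CON (median 16228) and from 19435 to 24134 in PEA (median 22459). CON replicate 2 was above every PEA library and CON replicate 4 above the lowest, and the log2 fold change of 0.38 (SE 0.13) did not pass the threshold (edgeR adjusted p = 0.0768).

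H2-T23 (chr17:36340229-36345571) encodes the heavy chain of Qa-1, which shows leader peptides of other class I chains to the CD94/NKG2 receptors of natural killer cells. H2-T23 ran from 2157 to 5209 normalized counts in CON (median 3035) and from 3358 to 4776 in PEA (median 4239), again with CON replicate 2 above all PEA libraries. Its log2 fold change of 0.34 (SE 0.17) was not called (edgeR adjusted p = 0.212). H2-M3 (chr17:37581106-37585384) encodes a non-classical heavy chain that binds N-formylated peptides, and it was the lowest of the heavy chain members. H2-M3 ran from 185.5 to 265.1 normalized counts in CON (median 227.4) and from 236.1 to 299.8 in PEA (median 274.8). CON replicate 4, not CON replicate 2, was its highest CON library, and 4 of 6 PEA libraries lay above it, with a log2 fold change of 0.26 (SE 0.10; edgeR adjusted p = 0.108).

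Heavy chain values carry a limit of the counting. The genes of the H2-K, H2-D, H2-Q and H2-T groups are near-identical in long stretches, C2C12 carries the H-2k haplotype of C3H mice while the reference is that of C57BL/6, and the authors' quantification by expectation maximization divides reads that match several transcripts. The estimated counts of H2-K1, H2-D1 and H2-T23 were not whole (tolerance 0.001) in 12 of 12 libraries, and that of H2-M3 was not whole in 1. How reads were divided among the heavy chains was therefore uncertain. Values that were not whole also occurred for Tap2, Tapbp and Erap1 in 12 of 12 libraries and for Tap1 in 9.

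B2m (chr2:121977957-121983594) encodes beta-2-microglobulin, the light chain shared by all class I molecules, and it lies outside the MHC region. Its estimated counts were whole in every library. B2m ran from 26193 to 47980 normalized counts in CON (median 33318) and from 40656 to 46870 in PEA (median 44392). As with H2-K1, 5 of 6 CON libraries lay below every PEA library, and CON replicate 2 lay above them all. The log2 fold change was 0.37 (SE 0.11), called higher (edgeR adjusted p = 0.0479).

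Tap1 (chr17:34405996-34416199) and Tap2 (chr17:34422501-34435829) encode the subunits of the peptide transporter of the endoplasmic reticulum. Tap1 ran from 264.3 to 786.5 normalized counts in CON (median 493.6) and from 600.8 to 978.4 in PEA (median 825.6). In 4 of 6 PEA libraries Tap1 lay above the highest CON library, and CON replicates 2 and 4 lay above the lowest PEA library. Its log2 fold change was the largest among the members, 0.64 (SE 0.20), and was called (edgeR adjusted p = 0.045). Tap2 ran from 880.0 to 1614 normalized counts in CON (median 1209) and from 1251 to 1660 in PEA (median 1552). Only CON replicates 1, 3 and 6 lay below all PEA libraries, and the log2 fold change of 0.29 (SE 0.13) was not called (edgeR adjusted p = 0.150).

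Tapbp (chr17:34134873-34148267) encodes tapasin, which ties empty class I molecules to TAP and helps exchange peptides. Tapbp ran from 3522 to 7644 normalized counts in CON (median 5490) and from 6285 to 9452 in PEA (median 8739). The 4 PEA libraries other than replicates 1 and 3 lay above every CON library. The log2 fold change of 0.57 (SE 0.16) was called (edgeR adjusted p = 0.0316). Erap1 (chr13:74787687-74841320) encodes the aminopeptidase that trims peptides to the length class I molecules hold. Erap1 ran from 621.1 to 964.6 normalized counts in CON (median 715.6) and from 859.3 to 904.5 in PEA (median 869.8). Its PEA libraries were the tightest of all members, with a coefficient of variation of 2.02%, less than counting error alone would give at these counts, and lay below CON replicate 2, with a log2 fold change of 0.20 (SE 0.09; edgeR adjusted p = 0.153).

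Nlrc5 (chr8:95160984-95253900) encodes the transactivator that assembles on class I promoters. Nlrc5 was the least abundant member, from 59.6 to 209.3 normalized counts in CON (median 87.4) and from 114.3 to 209.9 in PEA (median 141.2). CON replicate 2 stood far above the other CON libraries and just under the highest PEA library, and CON replicate 1 lay just above the lowest PEA library. The log2 fold change of 0.52 (SE 0.25) was not called (edgeR adjusted p = 0.186).

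Per kilobase of annotated exon, B2m stood highest in CON (16300 ± 3879 normalized counts per kb, SD, n = 6), followed by H2-K1 (6986 ± 2190), H2-D1 (5681 ± 1595), Tapbp (1243 ± 365), H2-T23 (952 ± 338), Tap2 (257 ± 61.6), H2-M3 (123 ± 18.0), Erap1 (94.6 ± 16.6), Tap1 (85.3 ± 32.2) and Nlrc5 (12.5 ± 6.29). In CON the ranges of the neighbours H2-K1 and H2-D1, Tapbp and H2-T23, H2-M3 and Erap1, and Erap1 and Tap1 overlapped, although H2-K1 was above H2-D1 in 6 of 6 libraries. In PEA the order was the same except that Tap1 (132 ± 22.7) stood above Erap1 (108 ± 2.19), in 5 of 6 libraries, with overlapping ranges. Exon length here is the union over annotated transcripts, so the levels per kb are approximate.

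Ratios of partners that join in 1 complex were compared within each library. The ratio of Tap1 to Tap2, each per kb of exon, was 0.323 ± 0.0527 in CON and 0.422 ± 0.0342 in PEA (SD, n = 6). It ran from 0.238 to 0.387 in CON and from 0.366 to 0.468 in PEA, only CON replicate 2 lying above the lowest PEA library. The difference of 0.40 on the log2 scale passed a two-sided exact permutation test (p = 0.00433; 0.00866 adjusted over the 2 ratios; smallest possible p, 0.00216). This difference passed the same exact permutation test without any one of the 12 libraries, and without CON replicates 3 and 6 together it was 0.27 (exact permutation p = 0.019).

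The ratio of H2-K1 and H2-D1 together to B2m was 0.769 ± 0.0534 in CON and 0.838 ± 0.0518 in PEA (SD, n = 6), a difference of 0.12 on the log2 scale (two-sided exact permutation p = 0.0368, unchanged by the adjustment over the 2 ratios). Its groups overlapped widely, from 0.684 to 0.844 in CON and from 0.771 to 0.923 in PEA. With all 4 heavy chain members in the numerator the difference was 0.11 (exact permutation p = 0.0801), and it missed the threshold without any one of CON replicates 1, 3, 4 and 6 or PEA replicates 2, 4, 5 and 6 (exact permutation p from 0.0519 to 0.0736).

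**Figure D2:**
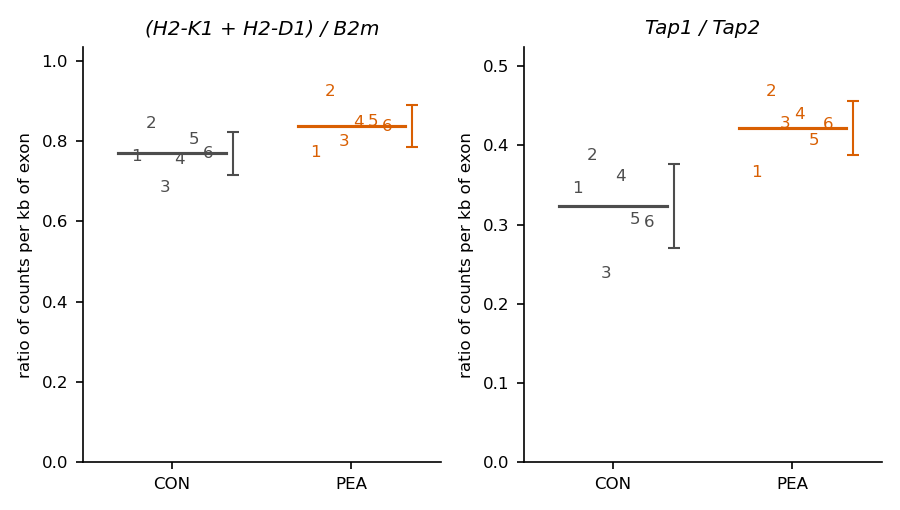
Ratio of counts per kb of exon (linear axis from 0) of H2-K1 plus H2-D1 to B2m, and of Tap1 to Tap2, in each library; digits are replicate numbers, bars the group means, error bars 1 SD (n = 6). The Tap1 to Tap2 ratio runs from 0.238 to 0.387 in CON and from 0.366 to 0.468 in PEA, and the other ratio overlaps more.

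Other class I and class I-like heavy chains mostly had higher means in PEA. Of 24 listed genes 16 were in the tables and 14 were tested, 11 with a higher and 3 with a lower mean in PEA, and H2-Q6, H2-Q7 and Procr were called higher (median log2 fold change 0.40). Procr, the endothelial protein C receptor with a class I-like fold, had the smallest p of the list and no overlap, from 82.6 ± 12.3 to 139 ± 19.9 normalized counts (SD, n = 6; log2 fold change 0.75, SE 0.14, edgeR adjusted p = 0.0034). H2-Q6 and H2-Q7, chains of the Qa-2 group, had log2 fold changes of 0.54 (SE 0.14, edgeR adjusted p = 0.0242) and 0.43 (SE 0.13, edgeR adjusted p = 0.0412). H2-Q4 and H2-T22 lay just outside the threshold (edgeR adjusted p = 0.0534 and 0.0505). The limit of the counting given above covers these H2-Q and H2-T genes too. Their counts may hold reads of other heavy chains, so they cannot be taken as separate from the members. Without CON replicate 2, 8 genes of the list were called higher, and without CON replicates 3 and 6 together 1 was, with a median log2 fold change of 0.23. The calls over all genes moved too, and stand beside the counts of this and the later lists. Called higher were 6.31% with all libraries, 9.32% without CON replicate 2 and 3.53% without CON replicates 3 and 6. Called lower were 623 of 13142, 971 of 13219 and 370 of 13338 genes in the same fits.

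Of the 10 folding and loading partners 3 were called higher, by small amounts, and the median log2 fold change was 0.07. Pdia3, the disulfide isomerase joined to tapasin, had a log2 fold change of 0.26 (SE 0.05, edgeR adjusted p = 0.0057), Hspa5, the chaperone BiP, 0.24 (SE 0.06, edgeR adjusted p = 0.0149) and Calr, calreticulin, 0.18 (SE 0.05, edgeR adjusted p = 0.037). All 3 act on many glycoproteins besides class I. Hspa5 was higher in every PEA library than in any CON library. Without CON replicates 3 and 6 together 1 of the 10 was called.

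Genes of peptide supply were split: of 13 listed, 12 were tested, 6 with a higher and 6 with a lower mean, and the median log2 fold change was -0.0022. The 2 called were lower, Pomp, which assembles proteasomes (log2 fold change -0.16, SE 0.05, edgeR adjusted p = 0.0353), and Npepps, a cytosolic aminopeptidase (-0.17, SE 0.05, edgeR adjusted p = 0.0453). The interferon-inducible catalytic subunit Psmb8 had a CON mean of 377 ± 235 and a PEA mean of 618 ± 65.7 normalized counts (SD, n = 6; log2 fold change 0.72, SE 0.31), which was not called (edgeR adjusted p = 0.139). Without CON replicate 2, 3 genes of the list were called higher and 2 lower, and without CON replicates 3 and 6 together none was called (2 with an unadjusted p below 0.05). Psmb9 was not analysed here. All 3 constitutive catalytic subunits had a lower mean, and Psmb7 was called (log2 fold change -0.20, SE 0.05, edgeR adjusted p = 0.0234), ahead of Psmb6 (-0.14, SE 0.04, edgeR adjusted p = 0.0508) and Psmb5 (-0.21, SE 0.07, edgeR adjusted p = 0.0678). The call of Psmb7 was lost without CON replicates 3 and 6 together.

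**Figure D3:**
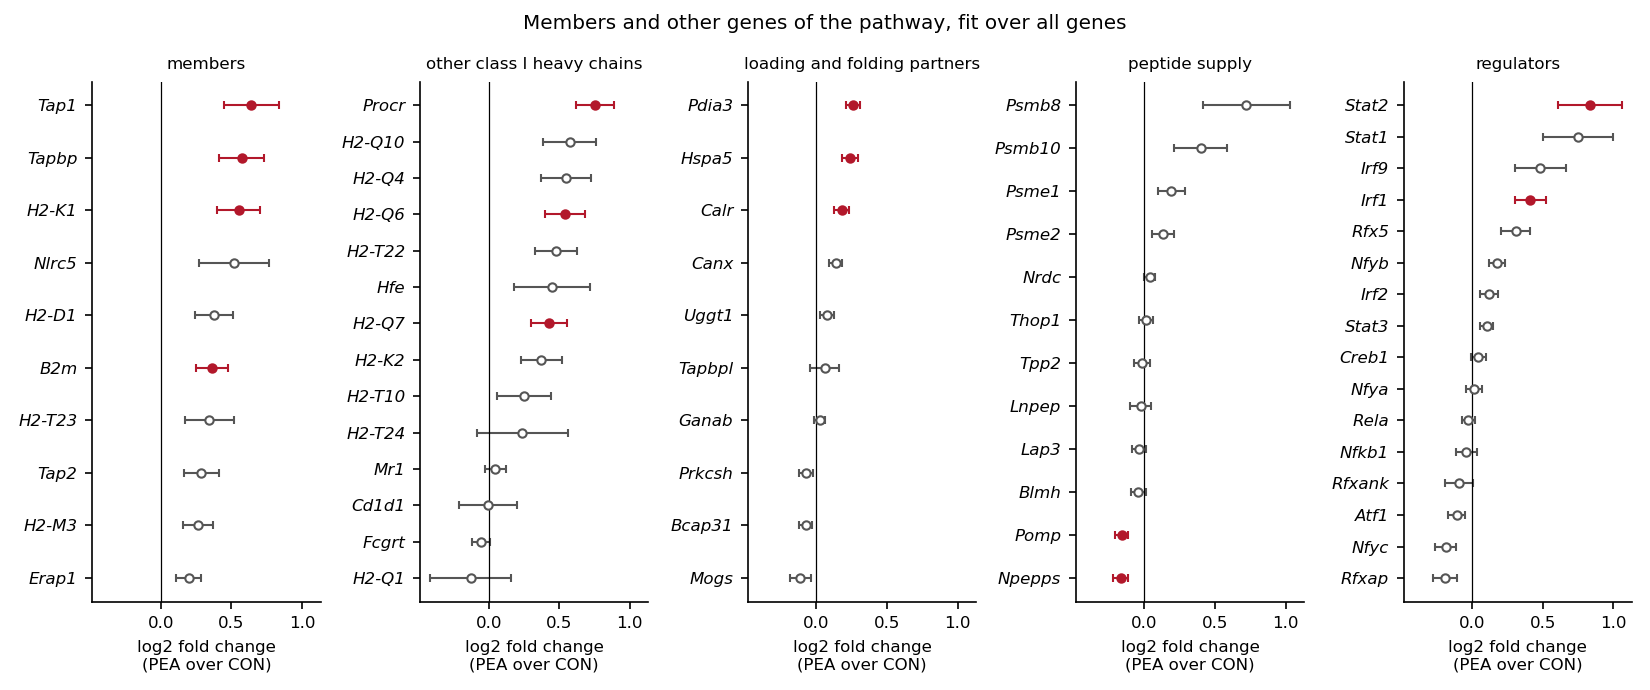
Log2 fold change of PEA over CON (points, with bars of 1 SE) for the members and for the tested genes of 4 other lists of the pathway, from the fit over all genes; filled red points have an edgeR adjusted p below 0.05. All members lie right of 0, the other heavy chains lie mostly right of it, and the points of peptide supply fall on both sides.

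Of 16 tested regulators of class I genes 2 were called higher and none lower, and the median log2 fold change was 0.07. Stat2, a signal transducer of type I interferons, had a log2 fold change of 0.83 (SE 0.23, edgeR adjusted p = 0.0276) and Irf1, a factor that binds ISRE sites, 0.41 (SE 0.11, edgeR adjusted p = 0.0258). Rfx5, which binds the X1 box of class I and class II promoters, had a log2 fold change of 0.31 (SE 0.10, edgeR adjusted p = 0.0569). Nfyb, a subunit of the CCAAT-binding factor, had 0.17 (SE 0.06, edgeR adjusted p = 0.0557), with every PEA library above every CON library. Without CON replicate 2, 5 regulators were called higher and 1 lower, and without CON replicates 3 and 6 together 1 was called higher. Ciita, the class II counterpart of Nlrc5, was below the filter, at 0 counts in 8 of 12 libraries.

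Of 21 listed interferon genes Ifnb1 and Ifng were in the tables, and the others were not analysed here. Both were below the filter and not tested. Ifnb1 was at 0 counts in 6 of 12 libraries and never above 4.72 normalized counts. Ifng, the type II interferon, ran from 3.06 to 7.86 normalized counts in CON and from 0 to 3.03 in PEA, at 0 counts in 2 libraries. The lowest CON value of Ifng lay just above the highest PEA value, at levels near the floor. Among 11 tested receptors, kinases and feedback inhibitors (Socs1, Socs3, Usp18) of interferon signalling none was called by edgeR (4 with an unadjusted p below 0.05; 1 called by DESeq2 and 2 by limma-voom). Leaving out CON replicate 2 gave 2 called higher and 1 lower, and leaving out CON replicates 3 and 6 together gave none. The smallest p values of that list were those of Jak2 (log2 fold change 0.14, SE 0.05, edgeR adjusted p = 0.0643), Socs1 (0.46, SE 0.15, edgeR adjusted p = 0.0644) and Ifngr1 (-0.16, SE 0.06, edgeR adjusted p = 0.0846).

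Interferon-stimulated antiviral genes varied over the libraries much as the members did. All 27 tested genes had a higher mean in PEA, with a median log2 fold change of 0.86, 26 had an unadjusted p below 0.05, and 6 were called by edgeR, 4 by DESeq2 and 22 by limma-voom. Cmpk2 (log2 fold change 1.04, SE 0.28, edgeR adjusted p = 0.0258), Gbp7 (0.87, SE 0.24, edgeR adjusted p = 0.0282) and Rsad2 (1.00, SE 0.27, edgeR adjusted p = 0.0282) had the smallest p. All 27 were called higher by edgeR without CON replicate 2, and without CON replicates 3 and 6 together 3 were, with a median log2 fold change of 0.43. The summed level of the list ran from 13714 normalized counts in CON replicate 3 to 71714 in CON replicate 2, and from 48587 to 76194 in PEA.

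On a score that averages each member's log2 CPM after centring, the libraries ran from -0.71 (CON replicate 3) and -0.53 (CON replicate 6) through -0.26, -0.23 and 0.01 (CON replicates 5, 1 and 4) to 0.36 (CON replicate 2), and in PEA from 0.01 and 0.02 (replicates 1 and 3) through 0.25 and 0.30 (replicates 5 and 6) to 0.37 and 0.40 (replicates 4 and 2). The same score of the interferon-stimulated genes put CON replicates 3 (-1.68) and 6 (-1.50) lowest and CON replicate 2 (0.68) among the PEA libraries. Outside the members, the genes whose log2 CPM followed the member score most closely over the 12 libraries were Ly6a (Pearson r = 0.991), Ly6e (0.990), Irf7 (0.990), Phf11d (0.990) and H2-Q4 (0.987). With deviations from the group means in place of levels they were Ly6e (0.989), Apod (0.986), Ly6a (0.986), Irf7 (0.983) and Phf11d (0.982). These values describe 12 libraries that share a line, a protocol and, for some, an experiment. As a heavy chain gene, H2-Q4 carries the limit of the counting given above.

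**Figure D4:**
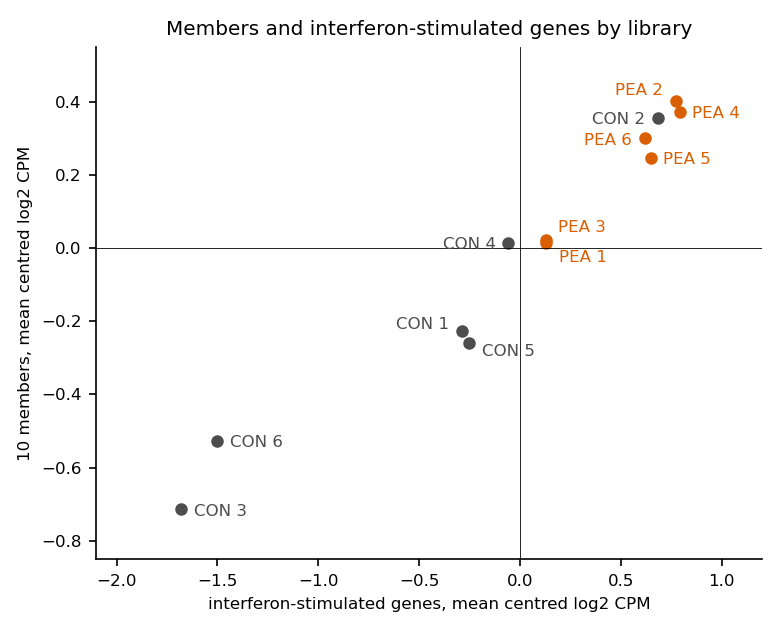
Mean centred log2 CPM of the 10 members (vertical axis) against that of 27 interferon-stimulated genes (horizontal axis), 1 point per library. The points rise together, from CON replicates 3 and 6 at the lower left to CON replicate 2 and 4 PEA libraries at the upper right.

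The members varied more among CON wells than among PEA wells. The coefficient of variation of the normalized count was larger in CON for 10 of 10 members (65.8% of all genes tested), with a median over the members of 28.7% in CON and 11.1% in PEA, beside 10.2% and 8.25% over all genes tested. The calls changed with the CON libraries that were kept. Without CON replicate 2, 9 of 10 members were called higher, H2-M3 being the exception, beside 9.32% of all genes tested, and in H2-K1 and B2m (2 of 10, beside 5.48%) every PEA library then lay above every CON library. Without CON replicates 3 and 6 together none was called (4 of 10 with an unadjusted p below 0.05; 3.53% of all genes tested called higher), and the median log2 fold change of the members was 0.22. Without CON replicates 2, 3 and 6, a choice added after the values had been seen, 5 of 10 were called, beside 5.42% of all genes tested, and the median was 0.34. The sign was positive in every member under every one of these fits.

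**Figure D5:**
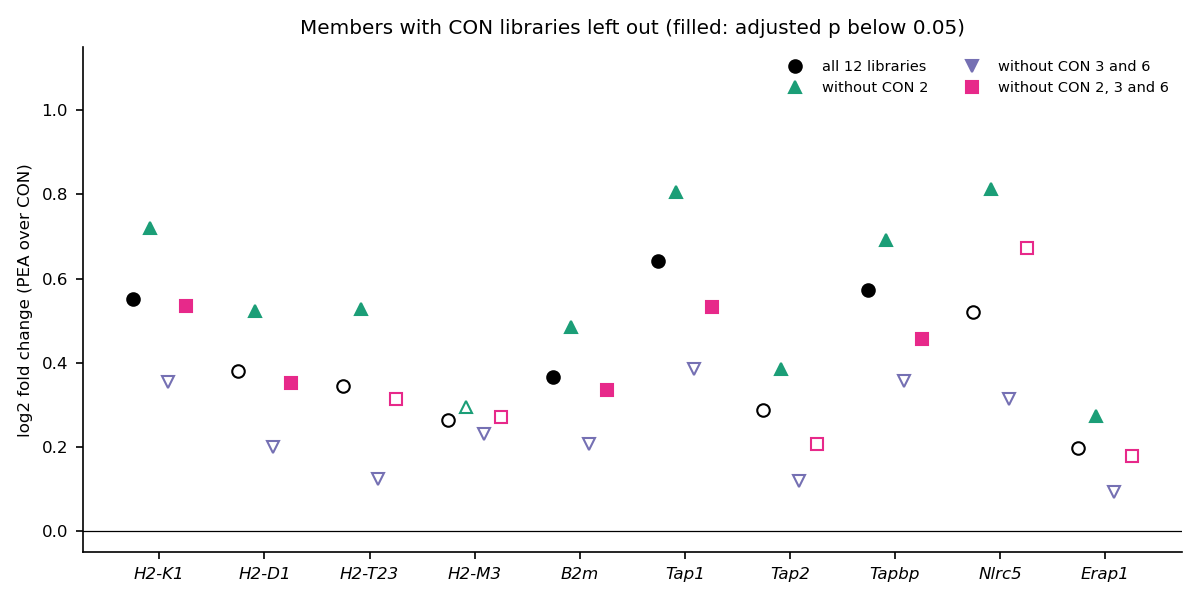
Log2 fold change of PEA over CON for each member with all 12 libraries and with CON replicate 2, CON replicates 3 and 6, or all 3 of these left out; filled symbols have an edgeR adjusted p below 0.05. All values lie above 0, the highest without CON replicate 2 and the lowest without CON replicates 3 and 6, and H2-M3 shows the smallest spread.

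With single libraries left out, H2-K1 and Tapbp kept an adjusted p below 0.05 in 5 of 12 edgeR fits, Tap1 in 4 and B2m in 2. None of the 4 was called without any one of CON replicates 1, 5 and 6 or PEA replicates 2, 4, 5 and 6, where the adjusted p of H2-K1 reached at most 0.067, of Tapbp 0.0753, of Tap1 0.103 and of B2m 0.104. The log2 fold changes in these 7 fits stayed near those of all libraries, from 0.48 to 0.56 for H2-K1, 0.49 to 0.57 for Tapbp, 0.56 to 0.64 for Tap1 and 0.30 to 0.36 for B2m. Without CON replicate 3 the calls of B2m and Tap1 were lost, and without PEA replicate 1 or 3 that of B2m. With all libraries, DESeq2 called H2-K1 and Tapbp higher (2 of 10, beside 7.48% of all genes it tested), and limma-voom called H2-D1 besides the 4 (5 of 10, beside 7.39%).

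Markers of other states of the culture also differed between the groups. Of 7 tested myoblast and progenitor markers 3 were called higher, Top2a (log2 fold change 0.95, SE 0.14, edgeR adjusted p = 0.000937) and Mki67 (1.03, SE 0.24, edgeR adjusted p = 0.0149), both genes of dividing cells, and Cd34 (0.24, SE 0.06, edgeR adjusted p = 0.0135). Of the 7, 4 had a higher and 3 a lower mean, with a median log2 fold change of 0.09, and the myoblast identity genes Myf5 (0.09), Pax7 (-0.022), Vcam1 (-0.044) and Myod1 (-0.10) were not called (edgeR adjusted p from 0.416 to 0.947). The median of the 7 was 0.15 without CON replicate 2, 0.14 without CON replicates 3 and 6 together and 0.26 without CON replicates 2, 3 and 6. In each of these fits 3 were called higher. The summed level of the 8 markers ran from 8808 to 10530 normalized counts in CON and from 10621 to 11772 in PEA. Within it the means of Top2a (1145 to 2203), Mki67 (486 to 986) and Cd34 (1965 to 2318) rose most, while Vcam1, Myod1 and Pax7 had lower means. Of 12 myotube markers 11 had a lower mean in PEA, and Tnnt3, a troponin of fast fibres (log2 fold change -0.33, SE 0.08, edgeR adjusted p = 0.0184), and Myh8, the perinatal myosin (-0.74, SE 0.23, edgeR adjusted p = 0.0474), were called lower. Acta1 came next by p (-0.23, SE 0.08, edgeR adjusted p = 0.0756). Without CON replicates 3 and 6 together 5 were called lower, all 12 had a lower mean, and the median log2 fold change went from -0.20 to -0.39. Without CON replicate 2 that median was -0.13, with 2 markers called lower and 3 of 12 having a higher mean. Their summed level ran from 108907 to 166459 normalized counts in CON and from 115510 to 130506 in PEA. Of 6 tested fibroblast markers 4 had a higher and 2 a lower mean, and Dcn was called higher (log2 fold change 0.48, SE 0.15, edgeR adjusted p = 0.0439). Lum, with a lower mean (-0.77, SE 0.28, edgeR adjusted p = 0.0851), and Pdgfra (0.25, SE 0.10, edgeR adjusted p = 0.106) came next by p and were not called. DESeq2 called none of the 6 (3 with an unadjusted p below 0.05 in edgeR). edgeR called 3 higher without CON replicate 2, and without CON replicates 3 and 6 together 1 lower. The summed level of the 7 ran from 61190 to 79685 normalized counts in CON and from 60425 to 71426 in PEA. Col3a1 made up most of this sum, from 55711 to 72658 in CON and from 53160 to 62361 in PEA (log2 fold change -0.12, edgeR adjusted p = 0.246). Endothelial markers were below the filter. In bulk RNA fewer cells of a type and less RNA per cell cannot be told apart, and the part of the culture's makeup in the members' values was not tested.

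Calls were also made among genes of the class II pathway and among ligands of the cell surface. The class II pathway had 2 tested genes, H2-DMa, which was called lower (log2 fold change -0.53, SE 0.15, edgeR adjusted p = 0.0362), and Cd74, the invariant chain (1.40, SE 0.46, edgeR adjusted p = 0.0603), which ran from 12.6 to 154.4 normalized counts over all libraries. The call of H2-DMa was lost without CON replicates 3 and 6 together, and leaving out CON replicate 2 brought 1 call of a higher level in this pair. Of 8 tested costimulatory and inhibitory ligands 3 were called higher. Raet1d and Raet1e, stress ligands of the NKG2D receptor, had log2 fold changes of 0.58 (SE 0.15, edgeR adjusted p = 0.0228) and 0.19 (SE 0.06, edgeR adjusted p = 0.0472). Icam1, an adhesion molecule for T cells, went from 7.44 ± 7.50 to 29.8 ± 12.7 normalized counts (SD, n = 6; edgeR adjusted p = 0.0353), with 2 libraries at 0 counts. Without CON replicates 3 and 6 together none of the 8 ligands was called (4 with an unadjusted p below 0.05).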

How the data were processed

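RNA-seq libraries of C2C12 myotubes, 6 CON and 6 PEA, were analysed from 2 deposited tables, with groups taken from the titles of 13 sample labels. The authors trimmed reads, aligned them with STAR to mm39 and deposited an estimated count for each Ensembl gene from expectation maximization in Partek, 45.0% of the positive values not being whole. In the other deposited table the values are a signal on a linear scale, each library's counts over its median-ratio factor, called normalized counts here. The members and gene lists were chosen with earlier results of these data known. Counts were rounded and tested with edgeR 4.0.16 (TMM, default filter, quasi-likelihood test, Benjamini-Hochberg adjustment over 13142 genes, threshold 0.05) in R 4.3.3, a script tested on simulated data. Alternatives used DESeq2 1.42.0 and limma 3.58.1, and log2(normalized count + 1) for the second table. Ratios were tested with scipy by exact permutation. Named genes were all members, from every other list those with the smallest p (3 a list, plus others called or close to the threshold, chosen after their values were seen), and the 5 most like the member score. The depth was 12354845 to 50397444 counts, and the smallest count of a member was 51 (Nlrc5). No pair of libraries of a group matched within counting noise (lowest mean chi-square per gene 3.68), so none was taken as a library deposited again, which does not show that wells are independent. Libraries of the same number showed no sign of pairing (correlation of deviations from the group means -0.08 to 0.06), which cannot show that they are unpaired. The tables used here hold 16382 genes with Ensembl identifiers up to a highest one, and 2240 protein-coding genes of the annotation with higher identifiers were not analysed here, so shares over all genes leave them out. A gene with no column has no value here, high or low.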

Additional observations from a re-analysis of the deposited data

Results flagged for a closer look

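In CON, the Nlrc5 value of replicate 2 (209.3 normalized counts) stood apart from the other 5, which ran from 59.6 to 114.9, its gap to the next library taking 0.631 of the group's range. The depth of CON replicate 1 (50397444 estimated counts) stood apart from the other 5 CON libraries (12354845 to 19083862). These are 2 of 26 groups examined by Dixon's test at the 95% level, and chance gives about 1 in 20. Without CON replicate 2 the log2 fold change of Nlrc5 was 0.81 (edgeR adjusted p = 0.00909), and thinning all libraries to the smallest total left the 4 calls among the members in place.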

How the results depend on the processing

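The log2 fold changes of all 10 members stayed above 0 in all 24 fits. The 4 calls were the same without a filter on low counts, with at least 10 counts in every library, with counts not rounded, after thinning and on the deposited normalized counts, while median-of-ratios size factors called 3, without B2m (edgeR adjusted p = 0.05004, just above the threshold). DESeq2 called 2 members, and with all libraries a threshold of 0.01 left none (8 with an unadjusted p below 0.05) and 405 over all genes. With the replicate block 8 members were called, beside 943 of 13142 genes called higher. No CON library correlated best with the PEA library of its own number. That gives no sign of pairing by number but cannot show that wells of a number are unpaired. Without CON replicates 3 and 6 together no member was called (4 with an unadjusted p below 0.05), and over all genes 841 were called against 1452. Leaving out 1 library gave 0 to 9 called members, 9 without CON replicate 2, 2 without CON replicate 3 and 0 without any one of CON replicates 1, 5 and 6 or PEA replicates 2, 4, 5 and 6 (5 to 7 with an unadjusted p below 0.05). It gave 778 to 2203 called genes, 2203 without CON replicate 2, and 864, 906, 963, 794 and 778 without CON replicate 6 and PEA replicates 2, 4, 5 and 6. The log2 ratio of Tap1 to Tap2 passed in every alternative. That of the classical heavy chains to B2m was 0.11 with 4 heavy chain members (exact permutation p = 0.0801) and with all class I heavy chain genes (exact permutation p = 0.0563), 0.084 without CON replicates 3 and 6 (exact permutation p = 0.124), and 0.091 to 0.152 with 1 library left out. As exact sign changes within replicate block numbers both ratios gave p = 0.0312. The causes were not tested. Thinning all libraries to the smallest left the members' calls in place, and n is 6 wells from 3 repeats.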
